A study of Mus musculus with 4 samples.

Results

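Rab GTPase genes are described here, taken as every gene symbol made of Rab, a number and at most 1 further letter. The rule found 57 of the 23420 genes listed, and all 57 had enough reads to be tested. Rab proteins are small GTPases that mark the membranes of a cell. A Rab bound to GTP sits on its membrane through lipids attached to cysteines at its tail and recruits effectors that move, tether and fuse vesicles, exchange factors (GEFs) load it with GTP, and GTPase-activating proteins (GAPs) switch it off so that it can return to the cytosol. In sensory hair cells, membrane traffic of this kind feeds the ribbon synapse, recycles the apical membrane and handles what is taken up by endocytosis.

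The RNA came from cochleae of Atoh1-GFP mice, a transgenic line on the CD-1 background in which an Atoh1 enhancer drives GFP in hair cells, dissected on postnatal day 1. All cochleae were cultured overnight in low oxygen in medium with penicillin, and the treated ones then received 0.5 mM gentamicin, an aminoglycoside antibiotic that kills hair cells, for 3 h. GFP-positive hair cells (HC) and GFP-negative non-hair cells (NHC) were sorted from control and treated organs, giving 4 groups of 3 libraries. The reporter also labels some supporting cells beside the inner hair cells weakly, and cells with low GFP were gated out, whereas the NHC gate pools supporting cells, ridge epithelium and surrounding tissue.

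Values are normalised scores, read counts scaled per library with 1 added and not divided by gene length. Depth was 22400672 to 28152278 reads on genes per library, so counting error was small for most members, while Rab42, with the fewest reads of all members, lay close to the added 1 in every library. Hair cell identity held in the marker genes. The summed score of 9 hair cell markers was 9233 to 11464 in HC libraries and 237 to 313 in NHC libraries. Other cell types were also read in the HC libraries, with 6 mesenchymal markers summing to 193, 472 and 213 in HC control replicates 1 to 3, against 107 to 159 after gentamicin and 5110 to 9370 in NHC. Supporting cell markers summed to 2076 to 2482 in control HC and 1045 to 1755 in treated HC, against 1241 to 1866 in control NHC. Between the controls, 4 of these 10 markers were called higher and 1 lower in HC, and their part in the HC levels of Rab genes was not tested. Across the NHC libraries the sum of 6 neuronal markers ranged from 226 to 1338. Erythroid markers stood out in HC gentamicin replicate 2 (13.9, against at most 2.14 in the other HC libraries) and NHC control replicate 1 (49.9, against at most 7.18). A gene was called when limma's adjusted p over all 16078 tested genes was below 0.05 and its fold was above 1.2. Each group is 1 deposited sample with 3 replicate columns, which the study describes as biological replicates, and p-values measure the spread between them.

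All 57 members carried cysteine codons within the last 5 codons of their longest coding transcript, the place where the prenyl lipid is attached. By the position of the last cysteines, 20 ended in Cys-X-Cys, 13 in Cys-Cys, 3 in Cys-Cys and 1 more residue, 6 in Cys-Cys and 2 more, 6 in Cys-Cys and 3 more, and 9 in a single Cys followed by 3 residues. The last 8 codons and the stop codon are shown for the members on which the results turn, read 5′ to 3′ on the coding strand from the GENCODE transcripts of GRCm38, with cysteine codons in capitals, so that the different tails can be compared.
Rab3a: ccacctcatcaggatTGTgccTGCtga
Rab3d: ccacagccgagcagcTGCagcTGTtag
Rab14: ccccagagagaaggcTGTggcTGCtag
Rab15: aactcttcaaagaccTGCtggTGCtga
Rab31: ttgcaagccagccgtcggTGCTGCtga
Rab36: aggccgcccggcctaggcTGCTGTtaa
Rab34: aagaaaaaggccacaTGTTGTccctga
Rab5b: aacaagagccagTGTTGTagcaactga
Rab5c: agccggagccagTGCTGCagcaactga
Rab11b: aagctgcagTGCTGCcagagcctgtga
Rab25: aagagggccTGTTGCatcagcctctga
Rab37: cgctccagcTGCTGCtcctttgtgtga
Rab23: cctttcagcagcTGTagtgtaccctaa
Rab40c: tctcggagcaacTGCaagatctcctag

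Each of these runs is the end of the coding sequence, within an exon and directly before the 3′ UTR. Gene positions on GRCm38 were chr8:70754679-70758677 on the plus strand for Rab3a, chr12:76797960-76822908 on the minus strand for Rab15, chr10:75037058-75054748 on the plus strand for Rab36, chr17:65651729-65772752 on the minus strand for Rab31 and chr11:78188430-78192193 on the plus strand for Rab34. Rab5b lay at chr10:128677175-128696264 (minus), Rab5c at chr11:100715009-100738215 (minus), Rab11b at chr17:33742484-33760530 (minus), Rab14 at chr2:35180205-35201120 (minus) and Rab40c at chr17:25882114-25919727 (minus). Exons of 20 members overlapped those of another annotated gene, and in 8 of them that gene was protein coding, so reads there could be shared. Among members named below, Rab43 shared 4164 exonic bases with Gm45140 and Rab26 shared 267 with Traf7 on the same strand. On the opposite strand, Rab6a shared 708 with Mrpl48, Rab5a 221 with Pp2d1, Rab2b 195 with Tox4 and Rab3a 29 with Mpv17l2. Rab2b also shared 2469 with Gm43766 on the opposite strand. Overlaps with noncoding RNAs on the opposite strand were 634 bases for Rab39b, 356 for Rab20, 329 for Rab11b and 317 for Rab3b. Smaller ones were 204 for Rab7, 143 for Rab10, 119 for Rab22a, 103 for Rab40c and 27 for Rab26. On the same strand, Rab27a shared 149 with a pseudogene and Rab11a 107 with a microRNA.

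The control populations differed in most Rab genes. Without drug, 35 of 57 members were called, 13 higher and 22 lower in HC than in NHC. This was 61.4% of the members, beside 71.1% of all tested genes (30.2% higher and 40.9% lower). The lowest HC library was above the highest NHC library, or the reverse, for 41 of 57 members (71.9%) and for 79.2% of all genes. In bulk RNA of this kind, fewer cells of a type and less RNA per cell cannot be told apart. Scaling moved the median of all genes in this comparison from -0.12 to -0.01 on the log2 scale under median-of-ratios scaling, and 33 members were called there. Rab36, Rab15 and Rab3b led the members higher in HC, and Rab31, Rab32, Rab34 and Rab30 led those lower in HC.

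**Figure D1:**
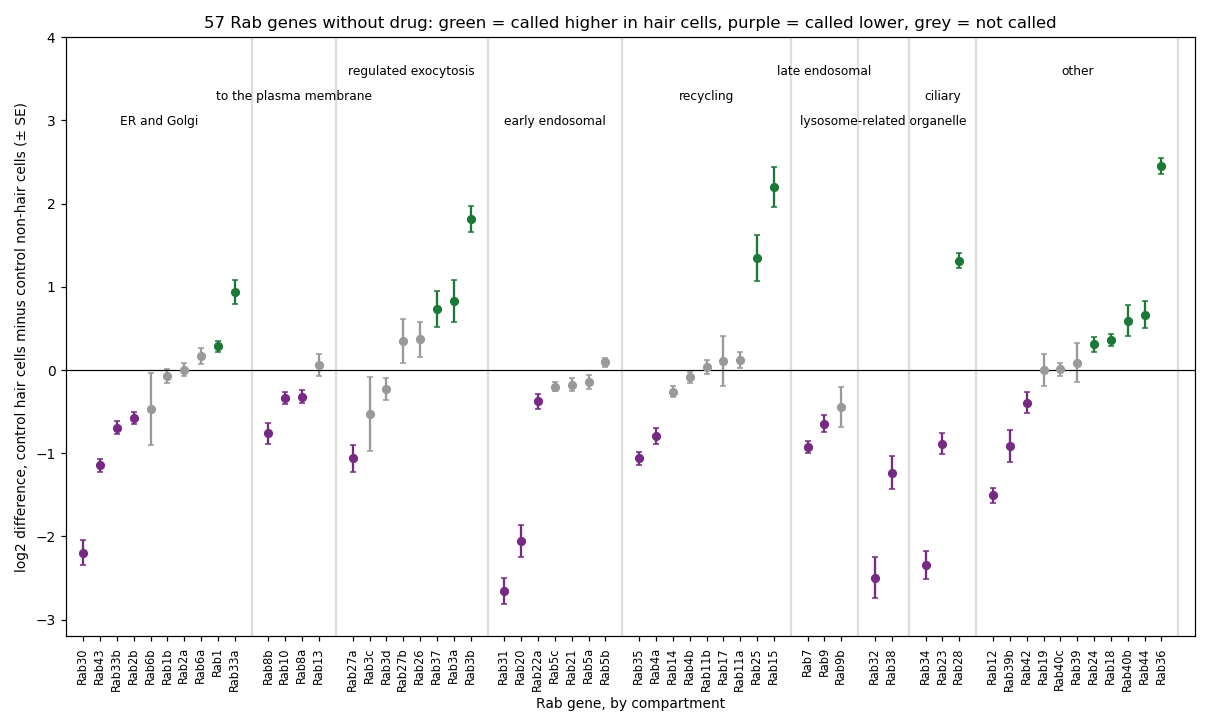
Log2 score of hair cells minus non-hair cells, both without drug (y axis, ± SE from the limma fit), for each of 57 Rab genes, ordered within compartments (x axis). Points run from -2.66 for Rab31 to 2.45 for Rab36, and no early endosomal, late endosomal, lysosome-related or plasma membrane Rab is called higher in hair cells.

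Secretory Rabs of the ER and Golgi were split, with 2 of 10 called higher and 4 lower in HC (median log2 difference -0.27, against -0.12 for all genes). The shares of all tested genes were 30.2% called higher and 40.9% called lower. Rab30, a Golgi Rab, scored 1.999, 2.71 and 2.15 in HC control and 10.2, 11.3 and 9.77 in NHC control. The groups did not overlap, and the log2 difference was -2.19 ± 0.15 (SE, adjusted p = 1.12e-07). Rab43, another ER to Golgi Rab, differed by -1.15 ± 0.08 (adjusted p = 1.51e-07). Rab33a, the X-linked Golgi Rab, went the other way, at 13.6, 14.4 and 12.5 in HC control against 6.54, 7.54 and 7.10 in NHC control (log2 difference 0.94 ± 0.15, adjusted p = 0.000133). The housekeeping pair Rab1b and Rab2a differed by only -0.07 ± 0.08 and 0.01 ± 0.07 and were not called. Their paralogues were called in opposite directions. Rab1 was higher in HC (0.28 ± 0.07, adjusted p = 0.00328), a call lost under scaling by total reads. Rab2b was lower in HC (-0.58 ± 0.07, adjusted p = 1.80e-05). Of the 4 Rabs that carry cargo from the Golgi to the plasma membrane, Rab8b (-0.76 ± 0.13), Rab10 (-0.34 ± 0.07) and Rab8a (-0.32 ± 0.08) were called lower in HC and Rab13 was not called (0.06 ± 0.13). The calls of Rab10 and Rab8a were lost under median-of-ratios scaling.

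Of the Rabs of regulated exocytosis, 3 of 8 were called higher in HC and 1 lower (37.5% and 12.5%, beside 30.2% and 40.9% of all genes), with a median log2 difference of 0.36. Rab3b, a member of the Rab3 group that tethers secretory and synaptic vesicles, scored 55.9, 60.7 and 56.8 in HC control and 14.03, 15.7 and 20.2 in NHC control. Its groups lay far apart, with a log2 difference of 1.81 ± 0.16 (adjusted p = 8.09e-07). Rab3a, the main synaptic vesicle Rab of neurons, scored 114, 118 and 107 in HC control and 45.0, 81.1 and 69.6 in NHC control (0.83 ± 0.25, adjusted p = 0.0105). Rab37, known from secretory granules of mast cells, was also called higher (0.73 ± 0.22, adjusted p = 0.00938) at low scores of 5.70 to 6.31. Rab27a, which docks lysosome-related organelles, was the member called lower (-1.06 ± 0.16, adjusted p = 9.06e-05). Rab27b (0.35 ± 0.27), Rab26 (0.37 ± 0.21), Rab3d (-0.22 ± 0.13) and Rab3c (-0.53 ± 0.45) were not called.

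No early endosomal Rab was called higher in HC, and 3 of 7 were called lower (median -0.20). Of all tested genes, 30.2% were called higher and 40.9% lower. Rab31, which works between the Golgi and early endosomes, scored 11.6, 15.5 and 12.7 in HC control and 93.6, 81.8 and 74.9 in NHC control. This was the widest gap of the family towards NHC, at -2.66 ± 0.16 (adjusted p = 3.82e-08). Rab20 scored 1.23 to 1.38 in HC control and 4.55 to 6.68 in NHC control (-2.06 ± 0.19, adjusted p = 1.48e-06). Because 1 is added to every score, folds of such low members are understated. Rab22a was lower by a small margin (-0.38 ± 0.09, adjusted p = 0.00223), and its call was lost under median-of-ratios scaling. The 3 forms of Rab5, the master regulator of early endosome fusion, were close in both populations, with differences of -0.14 ± 0.08 for Rab5a, 0.09 ± 0.06 for Rab5b and -0.20 ± 0.06 for Rab5c.

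Recycling Rabs held the strongest hair cell member after Rab36. Rab15, which acts on the recycling endosome, scored 626, 578 and 573 in HC control and 101, 128 and 165 in NHC control. Every HC library was far above every NHC library, and the log2 difference was 2.20 ± 0.24 (adjusted p = 5.17e-06). Rab25, the epithelial relative of Rab11 for apical recycling, scored 58.8, 56.2 and 51.6 against 17.4, 19.2 and 30.9 (1.35 ± 0.28, adjusted p = 0.000919). Rab35, a Rab of fast recycling, was lower in HC at 29.8, 28.6 and 27.8 against 61.6, 59.5 and 58.9 (-1.06 ± 0.08, adjusted p = 2.33e-07). Rab4a was lower too (-0.79 ± 0.09), whereas Rab11a (0.12 ± 0.09) and Rab11b (0.03 ± 0.08) were not called.

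Late endosomal and lysosome-related Rabs were lower in HC or not called. Rab7, which drives fusion of late endosomes with lysosomes, scored 38.3, 41.2 and 33.8 in HC control and 75.1, 68.7 and 70.8 in NHC control (-0.92 ± 0.08, adjusted p = 5.39e-07). Rab9, which returns cargo from late endosomes to the Golgi, was also lower (-0.64 ± 0.10, adjusted p = 0.000136), and Rab9b was not called (-0.45 ± 0.24). Rab32 and Rab38, known for building melanosomes, barely rose above the added 1 in HC control (1.17 to 1.56 and 1.13 to 1.32) and differed by -2.49 ± 0.25 and -1.23 ± 0.20. Melanocyte markers were called lower in HC for 3 of 6 genes, with Tyrp1 and Mlana not tested. They summed to 12.7 to 15.8 in HC control and 30.7 to 37.2 in NHC control, and their part in this was not tested.

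Ciliary Rabs were called in both directions. Rab28, which is linked to photoreceptor cilia, scored 126, 119 and 128 in HC control and 53.9, 49.2 and 46.9 in NHC control (1.32 ± 0.09, adjusted p = 1.27e-07). Rab34, needed for cilium formation and macropinocytosis, scored 10.9, 14.3 and 11.6 against 74.1, 59.9 and 53.4 (-2.35 ± 0.17, adjusted p = 1.52e-07). Rab23, a negative regulator of hedgehog signalling, was lower as well (-0.88 ± 0.13). Rab36, a relative of Rab34 not assigned to a compartment here, showed the opposite pattern at 131, 132 and 116 in HC control against 23.2, 22.9 and 23.0 in NHC control (2.45 ± 0.09, adjusted p = 9.28e-10). Of the 11 members without a place in these compartments, Rab36 among them, 5 were called higher and 3 lower in HC (median 0.09). The shares of all tested genes were 30.2% and 40.9%. Those lower in HC included Rab12 (-1.51 ± 0.09, adjusted p = 2.96e-08) and Rab39b, a neuronal Rab (-0.91 ± 0.19, adjusted p = 0.00106).

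Mesenchymal markers were called lower in HC for 6 of 6 genes. Relative to the mean of control NHC, with the added 1 taken off, the mesenchymal sum in HC control replicates 1 to 3 stood at 3.09%, 7.55% and 3.41%, Rab31 at 12.8%, 17.6% and 14.2%, Rab34 at 16.1%, 21.7% and 17.2%, and Rab12 at 30.9%, 36.7% and 35.4%. HC control replicate 2 was the highest of the 3 in each of these. Over all 22 members called lower in HC, replicate 2 was the highest for 10, replicate 3 for 9 and replicate 1 for 3. The part of other cells in the remaining HC level of these Rabs was not tested.

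Levels of different Rab genes were compared per kilobase of exon. In control HC, Rab15 was the most abundant Rab at 128 ± 6.33 (SD, n = 3) score units per kilobase, followed by Rab2a (84.0 ± 6.14), Rab6a (65.8 ± 1.18), Rab1b (64.4 ± 1.67), Rab1 (57.1 ± 5.39), Rab11a (50.3 ± 3.05) and Rab3a (50.2 ± 2.34). The gaps from Rab15 to Rab2a and from Rab2a to Rab6a exceeded their SDs, but Rab6a and Rab1b, and Rab11a and Rab3a, did not differ beyond theirs. In control NHC, Rab2a came first (83.5 ± 3.35), ahead of Rab1b (67.8 ± 6.32), Rab6a (58.6 ± 5.30) and Rab5c (52.5 ± 1.96). Rab15 alone made up 12.4% ± 0.561 of the summed Rab level in HC control and 2.91% ± 0.650 in NHC control.

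**Figure D2:**
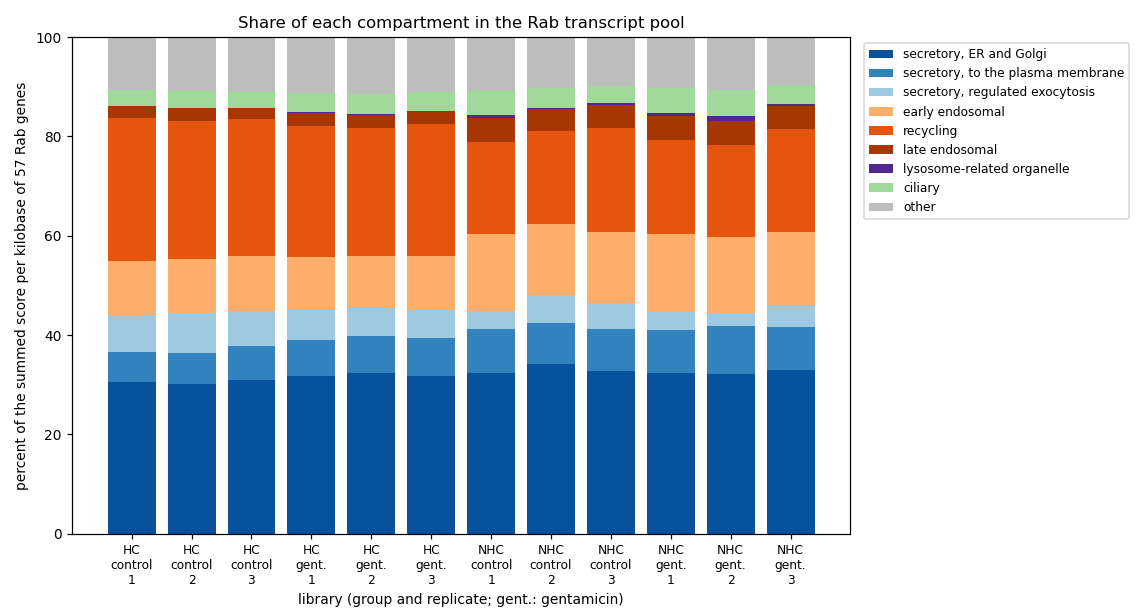
Percent of the summed score per kilobase of all 57 Rab genes that falls to each compartment (y axis), for each of 12 libraries (x axis). The recycling share is about 28% in control hair cells and 19% in control non-hair cells, while early and late endosomal shares are smaller in hair cells.

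Recycling Rabs took 28.1% ± 0.598 of the summed level in HC control and 19.4% ± 1.35 in NHC control. With Rab15 left out of both the recycling sum and the total, the recycling Rabs took 17.9% ± 0.173 and 16.95% ± 0.885, with overlapping libraries. Early endosomal Rabs took 10.9% ± 0.0331 in HC control against 14.8% ± 0.674 in NHC control, and late endosomal Rabs 2.43% ± 0.126 against 4.63% ± 0.281. Secretory Rabs together took similar shares, at 44.5% ± 0.412 and 46.4% ± 1.62. Within them, the regulated exocytosis group took 7.54% ± 0.484 in HC control and 4.83% ± 1.03 in NHC control. Using the longest transcript as length raised the recycling shares to 31.3% and 21.7% and kept Rab15 and Rab2a first and second in HC control. Lower places depended on the length used. With the longest transcript, Rab1 took rank 3 and Rab6a rank 5 in HC control, and Rab5c took rank 6 in NHC control.

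The 250 bases before the start of a hair cell-enriched and a non-hair cell-enriched Rab are shown because these members lie at opposite ends of the comparison. They are RefSeq sequences of GRCm38.p6 on the coding strand, 5′ to 3′, with motif letters in capitals. The Rab15 window lies before the most upstream of 4 RefSeq starts (chr12:76822525-76822774, minus strand). The GENCODE gene given above reaches further upstream, to 76822908, so this window lies inside it. The Rab31 window is its single entry (chr17:65772753-65773002, minus strand).
Rab15: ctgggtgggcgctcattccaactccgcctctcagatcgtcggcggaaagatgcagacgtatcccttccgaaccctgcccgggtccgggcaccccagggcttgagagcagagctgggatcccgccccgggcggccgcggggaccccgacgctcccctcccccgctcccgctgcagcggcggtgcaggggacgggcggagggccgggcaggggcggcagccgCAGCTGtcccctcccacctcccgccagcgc
Rab31: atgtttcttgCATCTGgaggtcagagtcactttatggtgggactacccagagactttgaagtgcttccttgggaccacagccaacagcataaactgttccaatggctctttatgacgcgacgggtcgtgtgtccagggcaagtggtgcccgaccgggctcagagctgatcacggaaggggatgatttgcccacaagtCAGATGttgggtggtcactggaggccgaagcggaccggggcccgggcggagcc

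The search used 5 motifs on both strands, none of which contains another. They were 3 E-boxes, a cyclic AMP response element and an AP-1 site. Atoh1 binds some E-boxes but not all, and its binding to these sites was not tested. Of 47 members with an entry off chromosome 18, the E-box CAGCTG was found in 9 (19.1%, against 14.7% of all 27025 genes), the E-box CAGATG in 6 (12.8% against 16.3%), the E-box CACGTG in 5 (10.6% against 6.86%), the cyclic AMP element TGACGTCA in 2 (4.26% against 1.77%) and the AP-1 site TGANTCA in 2 (4.26% against 7.82%). Members with CAGCTG included Rab15 and Rab3a, higher in HC, and Rab2b and Rab27a, lower in HC. Rab36 had no entry.

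Gentamicin changed 11 of 57 Rab genes in HC after 3 h. Rab23, Rab40c and Rab14 rose, and Rab37, Rab34, Rab9b, Rab31, Rab3d, Rab36, Rab5b and Rab11b fell. The 11 made up 19.3% of the members, beside 30.8% of all tested genes (13.6% higher and 17.2% lower). Score ranges of control and treated HC did not overlap for 29 members (50.9%, against 54.8% of all genes). The median log2 difference was -0.03 over the members and -0.09 over all genes. Scaling by total reads, which shifted that median of all genes to -0.01, turned the split of 3 higher and 8 lower into 6 higher and 4 lower. There Rab5b, Rab11b, Rab36 and Rab9b were no longer called, and Rab10, Rab28 and Rab5a were called higher.

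**Figure D3:**
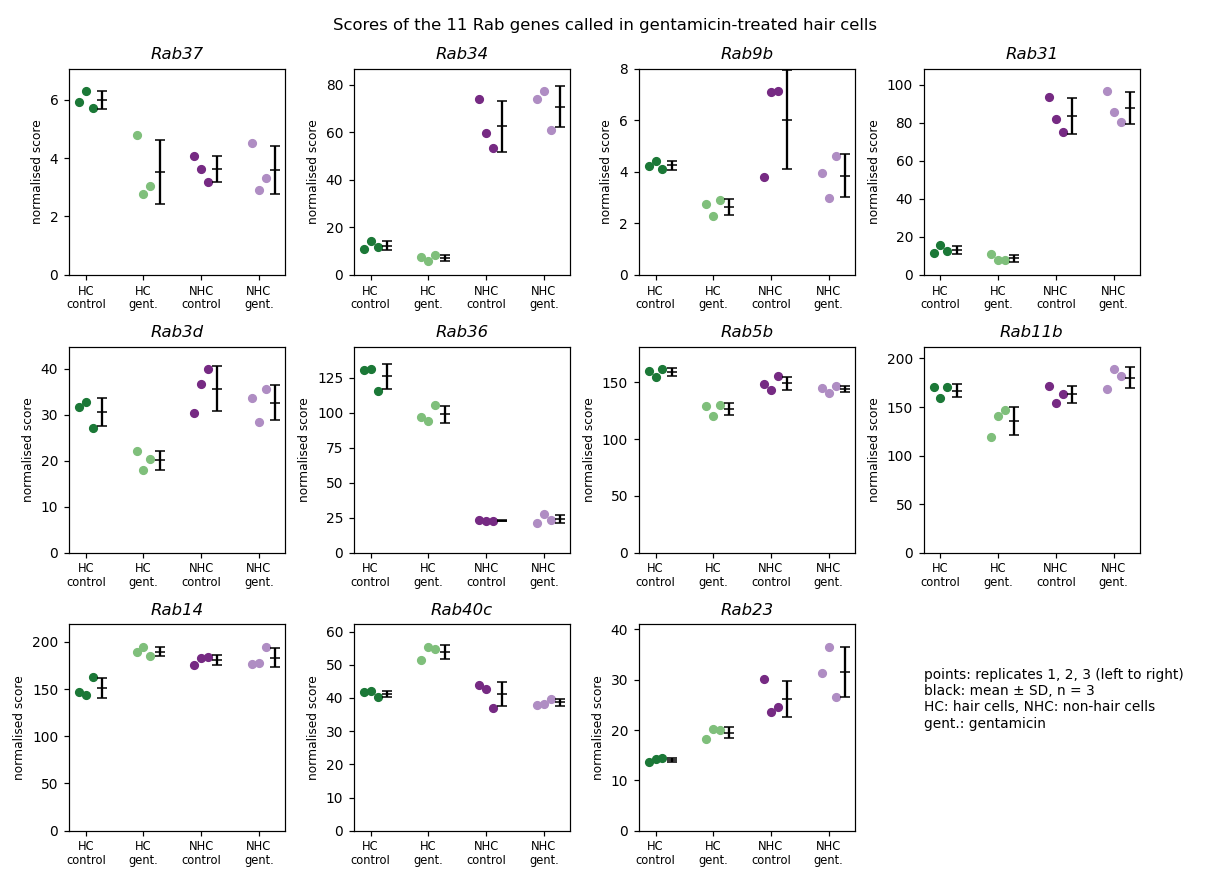
Normalised scores (y axis, from 0) of the 11 Rab genes called in gentamicin-treated hair cells, with each of 3 replicates per group as a point and the mean ± SD in black. Control and treated hair cell libraries do not overlap in any panel, and Rab31 and Rab34 stand several times higher in the non-hair cell libraries.

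Early endosomal Rabs changed unevenly. Rab5b scored 160, 155 and 162 in HC control and 130, 120 and 130 after gentamicin, a tight separation with a log2 difference of -0.33 ± 0.06 (adjusted p = 0.00144). Rab5c went from 104, 99.1 and 100 to 88.0, 81.2 and 87.4 (-0.24 ± 0.06, adjusted p = 0.00708), short of the fold limit. Rab5a instead scored 81.2, 80.2 and 89.5 in control and 99.6, 102 and 94.3 after gentamicin (0.24 ± 0.08, adjusted p = 0.0441), also short of the limit. The difference of Rab5a was thus opposite in sign to those of Rab5b and Rab5c. Rab31 scored 10.9, 7.74 and 7.59 after gentamicin, all below its control values (-0.61 ± 0.16, adjusted p = 0.0132), and its call was lost without HC control replicate 2 (-0.49) or without HC gentamicin replicate 2 (-0.53). The medians were -0.09 for the 7 early endosomal and 0.01 for the 3 late endosomal members.

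Of the 9 recycling Rabs, 1 was called in each direction, beside 13.6% of all tested genes called higher and 17.2% lower. Without the members of several roles, Rab14, Rab15 and Rab17, 0 of 6 were called higher and 1 lower. Rab14, which shuttles between Golgi and endosomes, scored 147, 143 and 163 in HC control and 189, 194 and 185 after gentamicin (0.33 ± 0.07, adjusted p = 0.00347). Rab11b, a general Rab of the recycling endosome, scored 170, 159 and 171 and then 120, 140 and 147 (-0.30 ± 0.08, adjusted p = 0.0172). All treated libraries lay below all controls, but the call was lost without HC control replicate 1 or 3 or gentamicin replicate 1. Its paralogue Rab11a did not follow, at 152, 142 and 160 in control and 160, 143 and 147 after gentamicin (-0.02 ± 0.09, adjusted p = 0.915). Rab15 scored 479, 455 and 470 after gentamicin, below all 3 controls, yet its difference of -0.34 ± 0.24 was not called (adjusted p = 0.297).

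In the late endosomal group, Rab7 (0.01 ± 0.08) and Rab9 (0.05 ± 0.10) were not called, and Rab9b went from 4.22, 4.44 and 4.10 to 2.73, 2.30 and 2.89 (-0.69 ± 0.24, adjusted p = 0.0442). That call of Rab9b was lost when any 1 of the 6 HC libraries was left out, with differences of -0.76 to -0.60. No Rab of the ER and Golgi (0 of 10) or of the route to the plasma membrane (0 of 4) was called by limma. In this comparison 30.8% of all tested genes were called. Unadjusted p was below 0.05 for 2 and 1 of these Rabs, and the medians were 0.02 and 0.05. Voom weights called 1 of the 10, Rab33a, and 0 of the 4. Of those 14, Rab6b showed the largest difference, from 74.6, 102 and 76.4 to 43.6, 30.1 and 38.2 (-1.18 ± 0.43, adjusted p = 0.0558). Its groups did not overlap, but the error is shared with the NHC libraries, where Rab6b ranged from 29.0 to 177.

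Rabs of regulated exocytosis were lower after gentamicin in 7 of 8 cases (median -0.54), beside 59.9% of all tested genes with a negative difference. Of the 8, 2 passed the test (25%, beside 30.8% of all genes). Rab3d, the Rab3 of non-neuronal secretory granules, scored 31.7, 32.8 and 27.1 in HC control and 22.1, 18.02 and 20.3 after gentamicin (-0.60 ± 0.13, adjusted p = 0.00585). Rab37 scored 5.91, 6.31 and 5.70 and then 4.79, 2.76 and 3.03 (-0.80 ± 0.22, adjusted p = 0.0159). Both groups were separate, though Rab37 was no longer called without HC control replicate 2 (-0.76) or gentamicin replicate 2 (-0.65) or 3 (-0.71).

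Among the other exocytic Rabs, Rab3a scored 77.7, 79.7 and 72.0 after gentamicin, all below the controls (-0.56 ± 0.25, adjusted p = 0.108). Rab3b followed at 50.1, 42.5 and 47.1 (-0.31 ± 0.16, adjusted p = 0.147) and Rab3c at 8.76, 4.52 and 6.65 (-0.74 ± 0.45, adjusted p = 0.223). Rab26 differed by -0.53 ± 0.21 (adjusted p = 0.0769) and Rab27a by -0.18 ± 0.16, and Rab27b alone was positive at 0.35 ± 0.27. The summed level of the 8 genes per kilobase was 78.1 ± 3.81 in HC control and 55.1 ± 2.65 after gentamicin. Most of that fall lay in Rab3a, at 50.2 ± 2.34 and then 33.9 ± 1.80, a member not called above. The neuronal marker sum overlapped between these groups, at 1119, 1204 and 1026 and then 970, 1017 and 1113. Its largest part was Nefm, at 632 to 748 in HC control and 244 to 718 in NHC control. The sum therefore cannot settle whether neuronal content changed in HC. Tubb3 and Prph, both called lower in HC than in NHC, stood at 15.9 to 30.6 and 3.17 to 7.07 in HC control. After gentamicin they stood at 11.1 to 14.2 and 1.59 to 2.75, and of the 6 markers only Prph was called lower. Nefl also fell without overlap, whereas Nefm, Snap25 and Neurod1 overlapped. The part of neuronal RNA in these Rab falls was not tested.

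Fitting the HC libraries on their own, without the more variable NHC libraries, called 19 members, 3 higher and 16 lower. This was 33.3% of the members, beside 36.9% of all tested genes in the same fit (14.8% higher and 22.05% lower). The 8 further members were Rab3a, Rab3b, Rab3c, Rab6b, Rab15, Rab17, Rab25 and Rab33a. The median SD of log2 scores over genes was 0.0945 in HC control and 0.127 in HC gentamicin, against 0.145 and 0.157 in the NHC groups.

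Ciliary and unassigned Rabs gave the other calls. Rab23 rose from 13.6, 14.3 and 14.4 to 18.2, 20.3 and 20.0 (0.47 ± 0.13, adjusted p = 0.0172), a call lost without HC control replicate 1 (0.44) or gentamicin replicate 2 (0.44). Rab34 fell from 10.9, 14.3 and 11.6 to 7.35, 5.85 and 8.20 (-0.79 ± 0.17, adjusted p = 0.00458), and this call remained without any 1 library, at -0.89 to -0.65. Rab40c, which carries a SOCS box and works in a ubiquitin ligase, rose from 41.7, 42.0 and 40.2 to 51.6, 55.5 and 54.7 (0.38 ± 0.07, adjusted p = 0.00269). Rab36 fell from 131, 132 and 116 to 97.1, 93.9 and 105 (-0.35 ± 0.09, adjusted p = 0.0149), and was not called without HC control replicate 1 or 2 or gentamicin replicate 2. All 3 treated values were still above the highest NHC score of 27.4.

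Some markers of other cells moved beside these changes. In treated HC, 3 of 6 mesenchymal, 4 of 10 supporting cell, 3 of 5 Schwann cell and 2 of 5 endothelial markers were called lower. So were 1 of 6 neuronal and 1 of 6 melanocyte markers, of which Tyrp1 and Mlana were not tested. Among all tested genes, 17.2% were called lower. For hair cell, macrophage and erythroid markers, 0 of 9, 0 of 6 and 0 of 3 were called. Relative to control NHC, the mesenchymal sum went from 3.09 to 7.55% in control HC to 1.71 to 2.54% in treated HC, Rab34 from 16.1 to 21.7% to 7.90 to 11.7%, and Rab31 from 12.8 to 17.6% to 8.0 to 12.1%. Rab12 instead stood at 30.9 to 36.7% and then 31.5 to 35.5%, and Rab32, close to the added 1, at 2.52 to 8.07% and then 6.58 to 13.4%. The part of these cells in the falls of Rab31 and Rab34 was not tested. The count of 11 fell to 7 without HC control replicate 1, to 7 without HC control replicate 2 and to 6 without HC gentamicin replicate 2. Leaving out both replicates labelled 2, chosen after seeing the data for their mesenchymal and erythroid markers, left 2 libraries a group and 2 calls, Rab5b and Rab40c.

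No Rab gene was called in gentamicin-treated NHC. Limma gave 0 of 57, with 3 members at an unadjusted p below 0.05, and voom weights also gave 0. Few genes were called at all in this comparison, at 0.342% of those tested (0.236% higher and 0.106% lower). The lowest adjusted p was 0.195, for Rab3a, which scored 45.0, 81.1 and 69.6 in NHC control and 41.5, 25.5 and 54.7 after gentamicin (-0.71 ± 0.25). Ranges of the 2 groups did not overlap for 2 members (3.51%, against 17.8% of all genes).

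**Figure D4:**
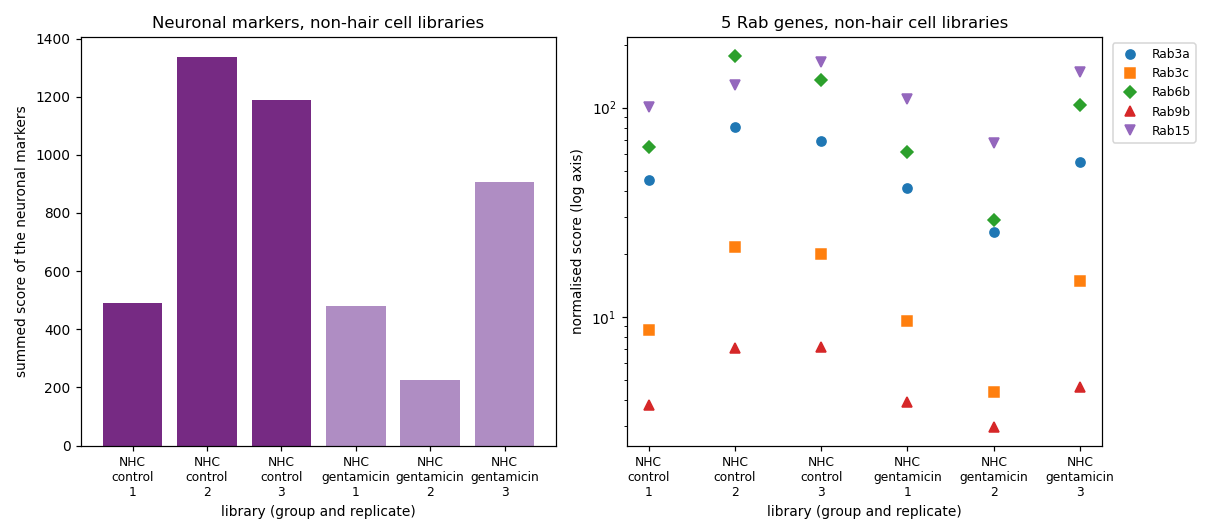
Summed score of 6 neuronal markers (left, y axis from 0) and scores of 5 Rab genes (right, log y axis) in each of the 6 non-hair cell libraries (x axis). NHC gentamicin replicate 2 is lowest in the marker sum, at 226, and in each of the 5 Rab genes.

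All 8 exocytic Rabs had negative differences in NHC (median -0.15), none of them called. Of the 16078 tested genes, 8217 had a negative difference (median -0.005). The differences of Rab26, Rab27b and Rab37 changed sign when certain single libraries were left out. Neuronal RNA content was uneven between the NHC libraries. The neuronal marker sum was 492, 1338 and 1189 in NHC control and 480, 226 and 906 in NHC gentamicin, with 0 of 6 markers called by limma or with voom weights and 3 at an unadjusted p below 0.05. Rab3c scored 8.61, 21.6 and 19.9 in NHC control and 9.58, 4.40 and 14.8 after gentamicin, and Rab6b 64.6, 177 and 135 and then 61.5, 29.0 and 103. Both were high in the libraries with a high neuronal sum and lowest in NHC gentamicin replicate 2, as were Rab3a and Rab9b. NHC gentamicin replicate 2 also had the highest mesenchymal sum of the NHC libraries, 9370, and the lowest supporting cell sum, 1015. The part of neuronal RNA or of other cell content in these differences was not tested. Without NHC control replicate 1 and NHC gentamicin replicate 2, left out together after seeing the data, 0 members were called for gentamicin in NHC, and 39 differed between the control populations, with Rab3c, Rab3d, Rab6b, Rab9b and Rab14 added as lower in HC and Rab8a lost.

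The response of HC and NHC was compared directly by an interaction term. It was called for 6 of 57 members, 2 more positive and 4 more negative in HC, which is 10.5% of the members beside 13.4% of all tested genes (6.84% and 6.56%). Rab34 differed most, falling in HC and not called in NHC at 74.0, 77.5 and 61.0 after gentamicin (interaction -0.97 ± 0.23 log2, adjusted p = 0.0218). Rab40c had 37.9, 38.3 and 39.8 in NHC gentamicin against 43.8, 42.7 and 37.0 in NHC control, and the interaction was 0.47 ± 0.10 (adjusted p = 0.0153). Rab5c scored 121, 113 and 115 in NHC control and 128, 126 and 124 after gentamicin, opposite in sign to HC, for an interaction of -0.36 ± 0.08 (adjusted p = 0.0146). Rab11b (-0.45 ± 0.12), Rab14 (0.31 ± 0.09) and Rab5b (-0.28 ± 0.08) completed the list.

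**Figure D5:**
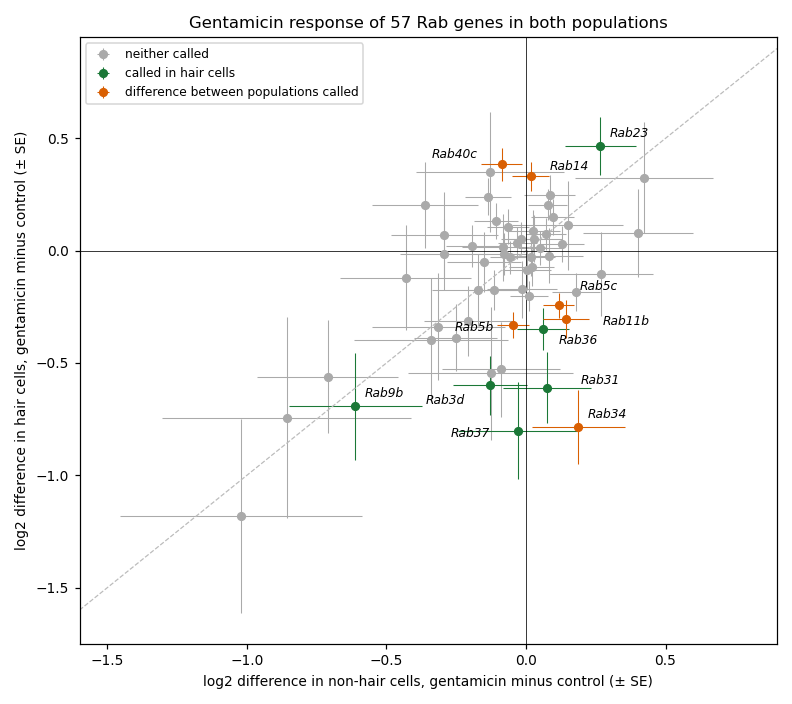
Log2 difference after gentamicin in non-hair cells (x axis) and hair cells (y axis) for 57 Rab genes, with SE bars from the limma fit and a dashed line of equal response. Rab34, Rab11b, Rab5b and Rab5c lie below the line and Rab14 and Rab40c above it, and these are the 6 members whose responses differed by test.

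Only Rab40c and Rab5c among the 6 remained called without any 1 of the 12 libraries. The count fell to 3 without HC control replicate 1, 2 without HC control replicate 2, 2 without HC gentamicin replicate 2, 2 without NHC control replicate 2 and 3 without NHC gentamicin replicate 2. It was 0 without both HC replicates labelled 2. None of the 8 exocytic Rabs was called by the interaction (0 of 8 by limma and with voom weights, 2 at an unadjusted p below 0.05), and for Rab3d it was -0.47 ± 0.19 (adjusted p = 0.117), so a difference in their response between HC and NHC was not shown.

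The proteins that load, prenylate, switch off and read Rabs were examined as a list of 130 genes, 128 of them tested. Between the control populations, 51 were called higher and 40 lower in HC, which is 71.1% of the list and the same as among all tested genes. In treated HC, 16 were called higher and 21 lower (28.9%, beside 30.8% of all genes). In treated NHC limma and voom weights called 0, with 9 at an unadjusted p below 0.05. Chm and Rabggtb were the prenylation genes that rose. Rabggtb, the catalytic subunit of the transferase that attaches the lipid to the tail cysteines shown above, scored 49.7, 50.4 and 48.2 in HC control and 90.4, 97.4 and 75.1 after gentamicin. All treated libraries were far above the controls (0.82 ± 0.09, adjusted p = 0.000115), and its interaction was 0.98 ± 0.13 (adjusted p = 0.00174).

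In treated HC, exchange factors were called higher for 3 and lower for 8 of 36 (30.6%, beside 30.8% of all tested genes). Dennd4c, a GEF for Rab10, rose (0.45 ± 0.07, adjusted p = 0.000996), and Ankrd27, a GEF for Rab21, fell from 34.9, 37.2 and 33.3 to 17.3, 14.8 and 19.9 (-1.03 ± 0.13, adjusted p = 0.000237). GAPs were called for 6 in each direction of 35 (34.3%), with Tbc1d12 up by 0.63 ± 0.09 and Tbc1d2b down (-0.71 ± 0.19). Of 50 effectors, 5 rose and 6 fell (22%), among them Bicd1, a dynein adaptor recruited by Rab6 (0.76 ± 0.22), and Myrip, which links Rab27 to myosins (-0.74 ± 0.24). For the interaction, the most changed called genes of their list and direction included Tbc1d5 (-0.55 ± 0.11), Myo5a (0.80 ± 0.20) and Plekhm1 (-0.60 ± 0.12).

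Without drug, the log2 differences of the 128 machinery genes ran from -3.53 to 4.85, beside -2.66 to 2.45 for the 57 Rabs. A longer list tends to reach further, so these extremes do not rank the lists. All tested genes ran from -6.48 to 10.03. Rims2, a Rab3 effector of the presynaptic active zone, was higher in HC by 4.85 ± 0.32 log2, Rin1, a GEF for Rab5, by 3.74 ± 0.11, and Tbc1d2, a GAP for Rab7, by 3.39 ± 0.14. Rab3il1, a GEF for Rab8, was lower in HC (-3.53 ± 0.31), as was Sytl2, a Rab27 effector (-3.07 ± 0.26). Tbc1d2b (-2.15 ± 0.19) and Chm, the Rab escort protein (-0.75 ± 0.11), were also among the largest calls of their lists.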

How the data were processed

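RNA from sorted cells was sequenced as 50-base single-end reads. Per the study's methods and the submitters' processing notes, the reads were trimmed and aligned to mm10 with TopHat2. The deposited files hold a normalised score for each gene and replicate. The values fit reads times a step per library plus 1, with no division by gene length, although the methods name RPKM. With that step, 76.6 to 78.4% of low values were whole reads within 0.05, so count tools were not used for the main calls. Recovered reads set the read minimum and entered the alternatives with other scalings and voom weights. Whether counting used strand is not given in the sources used here.

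Log2 scores of 12 libraries were fitted with limma 3.58.1 (R 4.3.3) as 4 groups with a mean-variance trend, over 16078 genes with at least 100 reads in all. Named genes were every member called for gentamicin or the interaction, the 3 called members per compartment with the largest population difference, all exocytic Rabs, and the most changed called machinery gene per list and direction. A gene that this rule names is not reported here. Others were named after their values were seen. Members and lists were chosen with earlier results of these data known. Same-numbered HC and NHC control libraries deviated together (r = 0.216, 0.316 and 0.200), the numbers coming from the column names. For the gentamicin libraries of HC and NHC, r was 0.377, -0.039 and -0.018. Alternatives were other scalings, read minimums, offsets, weights, a replicate block and leaving out each library.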

Additional observations from a re-analysis of the deposited data

Results flagged for a closer look

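The response to gentamicin differed between HC and NHC, by the interaction term of the limma fit, for 6 Rab genes. The interaction, as HC effect minus NHC effect on the log2 scale, was -0.9727 for Rab34, -0.4467 for Rab11b, -0.3602 for Rab5c, -0.2834 for Rab5b, 0.3122 for Rab14 and 0.4722 for Rab40c. Of these, Rab14 was called in 2 and Rab5b in 2 of the 12 fits that left out 1 library, Rab11b in 5, Rab34 in 8, and Rab5c and Rab40c in 12.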

How the results depend on the processing

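Counts of called members kept within 1.5 times their main value under other read minimums, offsets, weights and scalings, except that fitting the HC libraries alone called 19 in place of 11. Leaving out 1 library gave 6 to 11 calls for gentamicin in HC, 33 to 37 between the control populations, 0 in NHC and 2 to 6 for the interaction. Pairs of libraries chosen after seeing the data lowered these to 2 in HC and to 0 or 3 for the interaction, with fewer samples by construction. A replicate block left 11, 0 and 35 calls and gave 7 for the interaction, adding Rab5a. Between control and gentamicin, same-numbered libraries correlated at 0.037 to 0.052 in HC and at -0.23 to 0.68 in NHC. With 3 libraries a group, this does not settle whether they were paired. In addition, 3 small uncalled differences in NHC changed sign when 1 library was left out. Rab26 ranged from -0.28 to 0.085 (highest without NHC gentamicin replicate 2), Rab27b from -0.45 to 0.13 (positive without NHC control replicate 3, 0.075, and without NHC gentamicin replicate 2) and Rab37 from -0.21 to 0.11 (positive at 0.059 without NHC control replicate 1 and at 0.11 and 0.014 without NHC gentamicin replicates 2 and 3). Without the NHC pair, Rab26 was 0.099 and Rab37 0.20. The cause was not tested. Low scores near the added 1 limit what can be said of Rab20, Rab32, Rab38 and Rab42.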
